A study of Caenorhabditis elegans with 2 samples.

Results

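The 9 genes described here encode proteins of the nucleolus or of ribosome assembly in the nematode Caenorhabditis elegans, and were listed by name: fib-1, nol-56, nol-58, nol-10, rbd-1, ncl-1, nst-1, dao-5 and pro-1. All 9 were found among the 19985 protein-coding genes of the annotation. Regions bound by the zinc-finger protein ZTF-7 were mapped by ChIP-seq, in which DNA that comes down with a protein is sequenced. The tag was eGFP, recovered from worms of strain OP332, which carry the insertion wgIs332 and the mutation unc-119(tm4063) III. There was 1 group of whole L4 larvae, both sexes mixed, with 2 biological replicates. All tissues were pooled in each sample, so a region cannot be given to a cell type, and no untagged or input sample was analysed here. A gene is called bound here if the summit of a peak past the authors' reproducibility threshold (IDR, the irreproducible discovery rate) lay within 1000 bp of its annotated 5' end. Signal is the peak caller's value for a region and is comparable only within a list, so replicates are compared by rank, where rank 1 is the strongest region. Each replicate list and the list of both replicates pooled held 30000 regions, strong and weak, and the IDR list held the 1311 strongest of the pooled list. No read counts were in the lists, so the depth behind each value is unknown. Positions are 1-based and on genome build ce11, also called WBcel235.

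Ribosomes are assembled in the nucleolus, where RNA polymerase I makes the precursor of the ribosomal RNAs. Box C/D small nucleolar ribonucleoproteins (snoRNPs), each a guide RNA with a common set of core proteins, place methyl groups on that precursor, and large complexes then cut and fold it into the small and the large subunit. In C. elegans the size of the nucleolus is under genetic control, with NCL-1 as its best known repressor.

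Of the 9 genes, 5 were bound (55.6%), against 1121 of 19985 protein-coding genes (5.61%) and 1923 of 31563 genes of any kind other than piRNA (6.09%). The bound genes were nol-56 and nol-58 of the box C/D snoRNP, nol-10 and rbd-1 of the small subunit pathway, and pro-1 of the large subunit pathway. The genes fib-1, ncl-1, nst-1 and dao-5 were not bound. All 5 summits lay upstream of the 5' end, at 144 to 308 bp with a median of 230 bp, in sequence annotated as intergenic. Among all bound protein-coding genes, 987 of 1121 (88.0%) had their strongest summit upstream, at a median of 245 bp with quartiles of 142 and 425.5 bp. The 5 peaks had a median signal of 69.5, with a range from 54.2 to 87.0, while the IDR list as a whole had a median of 66.4 and quartiles of 55.6 and 88.5. All 5 summits thus lay between the quartiles of distance for this factor, and so did the signals other than that of pro-1, which was just under the lower quartile. With 1 group and 2 replicates no test between conditions was possible, and the shares are given as a description. The 9 genes were also chosen with earlier results of these data known. Their share is therefore not an independent estimate for nucleolar genes.

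**Figure D1:**
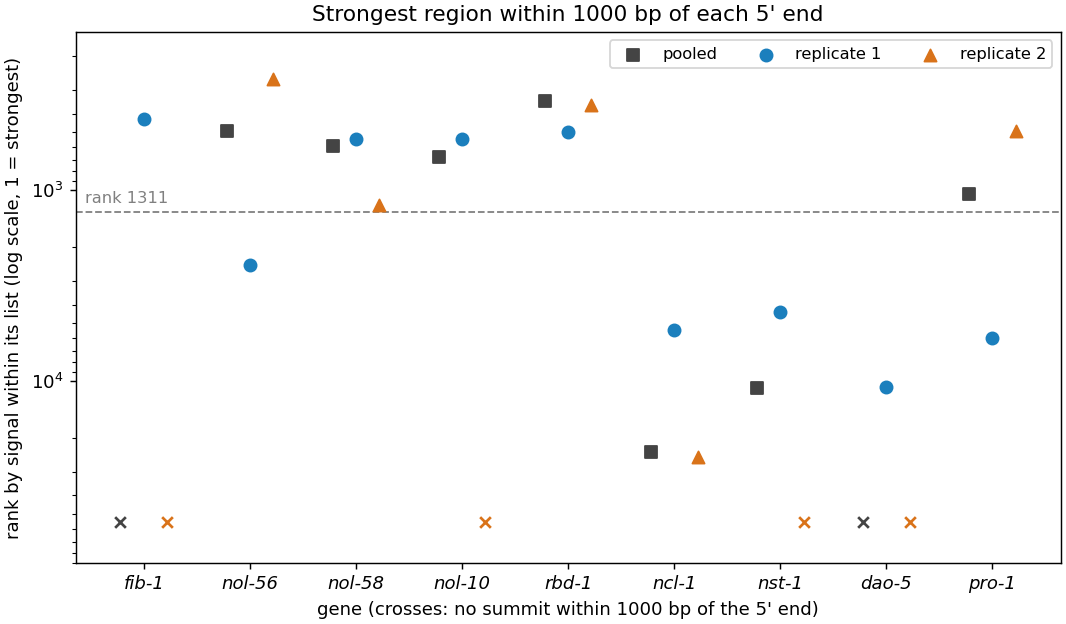
Rank of the strongest region whose summit lay within 1000 bp of the 5' end, for each gene, in the pooled list (squares), replicate 1 (circles) and replicate 2 (triangles), on a log axis with the strongest at the top; crosses mark lists with no such region, and the dashed line is rank 1311. Both replicates lie above the line for nol-58 and rbd-1 only, and fib-1 has a region above it in replicate 1 alone.

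The box C/D core proteins are taken first. The gene nol-56 (WBGene00010627, chromosome V, 10350466 to 10352978, minus strand) encodes the core protein known as NOP56 in yeast and human. Its IDR peak, chr V from 10353072 to 10353395, had a pooled signal of 74.9 and rank 492, with the summit 256 bp upstream. In replicate 1 the overlapping region had a signal of 16.4 and rank 2494, and in replicate 2 a signal of 57.6 and rank 264. The nol-56 region was therefore among the 1311 strongest in replicate 2 and among the 2622 strongest in replicate 1, and the summits lay 19 bp apart. Over the 1279 IDR peaks with a region in both replicate lists the median gap between replicate summits was 28 bp. The only other annotated gene, piRNA genes aside, with its 5' end within 1000 bp of this summit was K07C5.11, a snoRNA gene on the same strand whose 5' end lies 142 bp inside nol-56.

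The paralogous core protein NOP58 is encoded by nol-58 (WBGene00020915, chromosome I, 3267094 to 3269112, plus strand). Its IDR peak had a pooled signal of 69.5 and rank 589, with the summit 308 bp upstream. The overlapping regions had a signal of 34.6 and rank 542 in replicate 1, and a signal of 33.3 and rank 1207 in replicate 2, with summits 22 bp apart. Both replicates thus placed this region among their 1311 strongest. The summit lay 24 bp upstream of zip-4, a predicted bZIP transcription factor gene on the opposite strand, and so nearer to zip-4 than to nol-58. A second, weaker region lay farther upstream in all 3 lists, at rank 15882 in the pooled list, 2228 in replicate 1 and 5463 in replicate 2.

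Fibrillarin, the methyltransferase of the same particle, is encoded by fib-1 (WBGene00001423, chromosome V, 15000651 to 15002223, minus strand). Replicate 1 had a region with its summit 50 bp upstream, a signal of 38.7 and rank 425, the highest rank of any of the 9 genes in that replicate. Replicate 2 and the pooled list had no summit within 1000 bp, and their nearest summits lay 3135 and 3226 bp downstream of the 5' end. The fib-1 region is thus seen in 1 replicate only. Across the genome 103 of the 1311 strongest regions of replicate 1 (7.86%) had no overlapping region in the pooled list, against 14 of 1311 (1.07%) for replicate 2.

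The upstream sequences of fib-1 and nol-56 shared a run of 14 letters, AGGTCTCGCAGCGA. It was noticed after the sequences had been seen, so what follows is a description with no test. The window searched ran from 500 bp before to 50 bp from the 5' end, on both strands. Other pairs among the 9 genes shared runs of 9 to 14 letters (median 10), and rbd-1 with nst-1 also reached 14. Length alone therefore did not set this run apart. Its position relative to the summits is given next, and no other shared run was placed against them. Allowing for the letters that differ in nol-58 and nst-1, it becomes a box of 13 letters, GGTCTCGCNNCGA, which holds GGTCTCGC as its first 8 letters. The sites of fib-1, nol-56 and nst-1 are given with 15 bases on either side. At each of them a summit of some list, though not of every list, lay within 12 bp of the centre of the box. At nol-56 this was the summit of replicate 1 only. The nol-58 site also had a summit that near and is not printed. The distance of 12 bp was read from these same sites, so it is a description and no support for the box. Capitals mark the box, and each site is read on the strand of the box.
fib-1, chr V:15002261-15002303, minus strand: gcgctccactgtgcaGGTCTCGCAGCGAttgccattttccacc
nol-56, chr V:10353186-10353228, minus strand: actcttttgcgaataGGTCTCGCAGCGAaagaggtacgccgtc
nst-1, chr II:8283403-8283445, plus strand: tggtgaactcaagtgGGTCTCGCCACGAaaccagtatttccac

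The centre of the nol-56 box lay 27 bp from the IDR summit, 12 bp from the summit of replicate 1 and 31 bp from that of replicate 2. At nol-58 the box lay 4 bp from the IDR summit, and 33 and 11 bp from those of replicates 1 and 2. At fib-1 it lay 9 bp from the summit of replicate 1. At nst-1 it lay 6 bp from the pooled summit and 11 bp from that of replicate 1. The box was made from the letters of these 4 genes, so that they have it follows from how it was chosen. Having the box did not go with being bound among the 9 genes. The bound nol-10, rbd-1 and pro-1 lacked it, and fib-1 and nst-1 had it without being bound. Over the genome 303 of 19973 nuclear protein-coding genes (1.52%) had it. In a wider list of ribosome biogenesis genes, 1 of 41 (2.44%) had it, a share near that of all genes. That gene was snu-13, which encodes a further core protein of the box C/D particle and was named after its sequence was seen. The strongest region at snu-13 had a summit 252 bp upstream and rank 2040 in the pooled list, 3400 in replicate 1 and 2426 in replicate 2, below the IDR threshold. Its box lay 50 bp from the pooled summit, 41 bp from that of replicate 1 and 87 bp from that of replicate 2. The 5' end of another coding gene, rsp-7, also lay within 500 bp of that box.

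Of the 299 protein-coding genes with the box other than those 4, 57 (19.1%) were bound, against 5.61% of all protein-coding genes. With the 1311 strongest regions of each replicate in place of the IDR list, the counts were 55 genes (18.4%, against 5.13%) in replicate 1 and 42 genes (14.05%, against 5.42%) in replicate 2. A box lay within 150 bp of 35 of the 1289 nuclear IDR summits (2.72%), and the remaining summits had none that near. The box occurred 1986 times in the nuclear genome, and 1799 of these sites (90.6%) were in letters that the reference marks as repeats, as were 3 of the 4 sites at the genes described here. Of the 1986 sites, 35 (1.76%) lay within 150 bp of an IDR summit. The share expected for sites or windows placed at random was not worked out, so neither percentage is read as low or high. The part that repeated sequence plays in the regions was not tested. Neighbouring genes on opposite strands can share 1 site, as fib-1 does with mut-15, nol-58 with zip-4 and nst-1 with cct-4. The 299 genes are thus not all separate cases. They include mut-15, zip-4 and cct-4, so not all sites that made the box were left out of these counts. The nol-58 peak still counted for zip-4, and the replicate 1 region of fib-1 for mut-15.

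**Figure D2:**
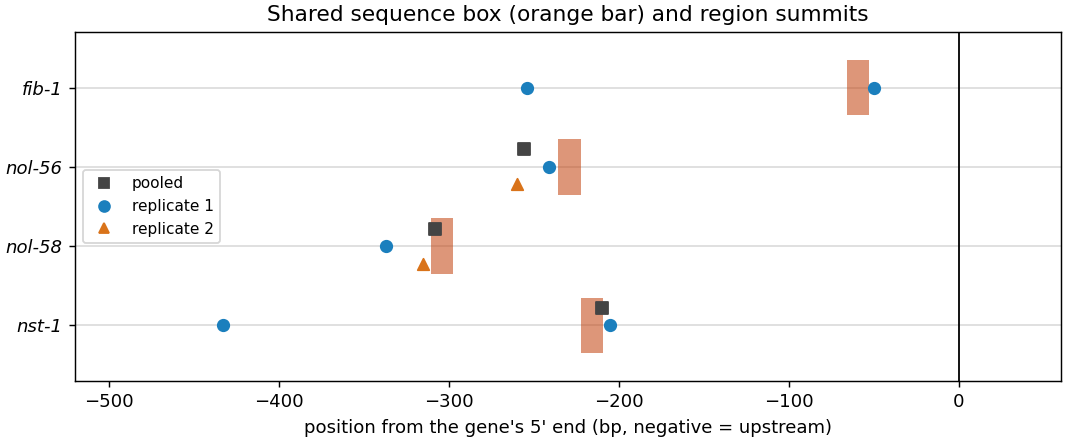
Position of the 13-letter box (orange bars, to scale) and of region summits in the pooled list (squares), replicate 1 (circles) and replicate 2 (triangles), in bp from the 5' end of the 4 genes that have the box, with negative values upstream. At each gene at least 1 summit lies within 12 bp of the centre of the box, and at nol-56 only that of replicate 1 does. The distance of 12 bp was read from these same sites.

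Both small subunit genes were bound. The gene rbd-1 (WBGene00004315, chromosome IV, 12724986 to 12730095, plus strand) encodes a protein with several RNA-binding domains, the counterpart of yeast Mrd1, which is needed to make the small subunit RNA. Its peak, chr IV from 12724680 to 12725003, was the strongest of the 5, with a pooled signal of 87.0 and rank 343. The signal was 36.0 with rank 499 in replicate 1, and 51.3 with rank 360 in replicate 2. The replicates agreed most closely here, with summits 3 bp apart. The summit lay 144 bp upstream of rbd-1 and 82 bp upstream of T23F6.3, a coding gene that runs the opposite way from a 5' end 226 bp off. The bases on either side of the summit, a capital letter, are shown because both replicates and the pooled list placed it within 3 bp.
rbd-1, chr IV:12724797-12724887, plus strand: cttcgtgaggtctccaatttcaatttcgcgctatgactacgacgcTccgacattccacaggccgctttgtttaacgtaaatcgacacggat

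The gene nol-10 (WBGene00017989, chromosome IV, 7580597 to 7583726, plus strand) encodes a WD-repeat protein, the counterpart of yeast Enp2 of the small subunit processome. Its IDR peak, chr IV from 7580279 to 7580602, had a pooled signal of 65.7 and rank 678, with the summit 156 bp upstream. Replicate 1 had a region of signal 34.6 and rank 544, with its summit 211 bp upstream. In replicate 2 no summit lay within 1000 bp of the 5' end, and the nearest was 6533 bp upstream. The peak at nol-10 therefore passed the threshold with a region in replicate 1 alone. Most IDR peaks were unlike it, as 1279 of 1311 (97.6%) were overlapped by a region in both replicate lists. The chromodomain gene cec-5 runs the opposite way from a 5' end 485 bp off, and the summit lay 329 bp upstream of it.

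The large subunit is represented by pro-1 (WBGene00004185, chromosome II, 10539438 to 10541996, minus strand), a WD-repeat gene known for its role in germline proliferation and the counterpart of yeast Ipi3. Its peak, chr II from 10542064 to 10542387, was the weakest of the 5, with a pooled signal of 54.2 and rank 1050, and the summit 230 bp upstream. The signal was 9.43 with rank 6016 in replicate 1, and 45.97 with rank 494 in replicate 2. The summits were 31 bp apart although the ranks were far apart. No other gene, piRNA genes aside, had its 5' end within 1000 bp of this summit. The summit sequence is shown beside that of rbd-1 for its base composition, at 19.8% GC over 91 bp against 48.4% at rbd-1. Over 301 bp the same summits had nearly equal GC, at 33.6% and 34.6%, so the contrast depends on the length of the window. The capital is the summit.
pro-1, chr II:10542181-10542271, minus strand: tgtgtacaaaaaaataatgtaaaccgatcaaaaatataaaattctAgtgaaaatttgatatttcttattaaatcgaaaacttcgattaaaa

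The genes that were not bound had weak regions at most in the pooled list. Nucleostemin, a nucleolar GTPase needed for growth, is encoded by nst-1 (WBGene00003821, chromosome II, 8281162 to 8283208, minus strand). Its strongest region had a pooled signal of 16.7 and rank 10972, with the summit 210 bp upstream. Replicate 1 had the matching region at signal 11.6 and rank 4394, and replicate 2 had no summit within 1000 bp. The chaperonin gene cct-4 runs the opposite way from a 5' end 459 bp off. The gene dao-5 (WBGene00000931, chromosome I, 10187546 to 10190896, minus strand) encodes the counterpart of the nucleolar phosphoprotein Nopp140. It had regions in replicate 1 alone, the stronger with signal 6.23, rank 10803 and a summit 142 bp upstream, while the nearest summits of the pooled list and of replicate 2 lay 2519 and 2533 bp upstream.

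The repressor gene ncl-1 (WBGene00003559, chromosome III, 7719729 to 7738105, plus strand) encodes a protein with B-box and NHL domains, and mutants have enlarged nucleoli. Within 1000 bp its strongest pooled region had a signal of 10.4 and rank 23622, with the summit 729 bp downstream of the 5' end. In replicate 1 the strongest region had rank 5415, and in replicate 2 the only region had rank 25298. An IDR summit of signal 60.4 and rank 822 lay 1153 bp upstream, just beyond the window. It was the nearest miss among the 9 genes, and the farthest summit inside the window was that of nol-58 at 308 bp.

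**Figure D3:**
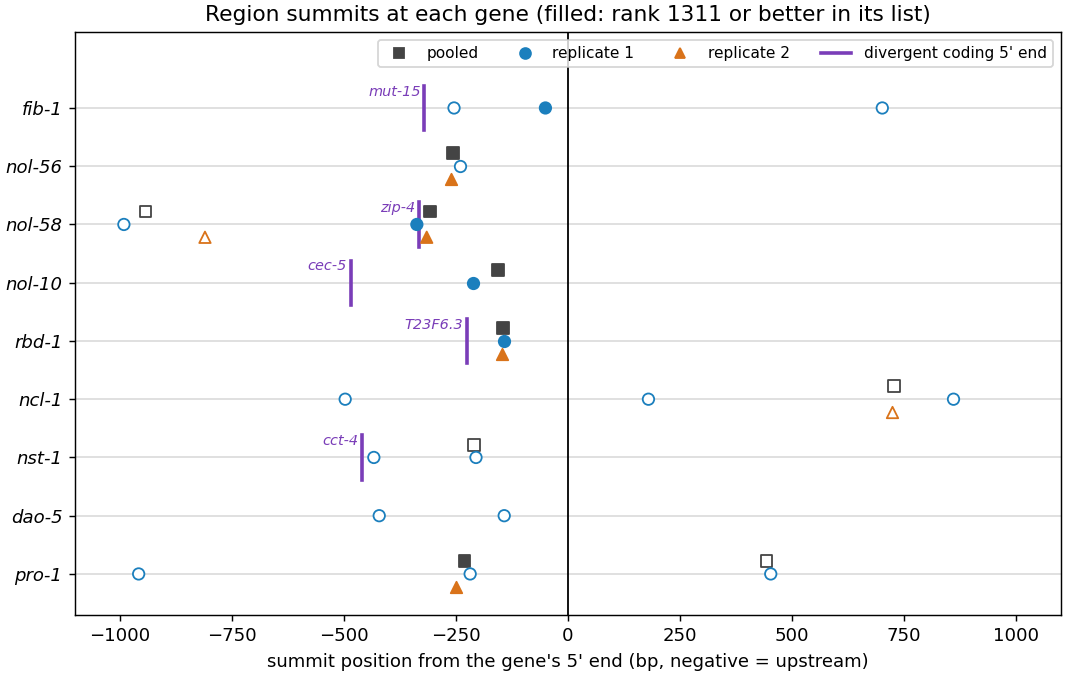
Summits of all regions within 1000 bp of each 5' end, by list, in bp from the 5' end with negative values upstream; filled symbols are among the 1311 strongest of their list, and purple bars mark 5' ends of protein-coding genes that run the opposite way. All filled symbols lie between 50 and 337 bp upstream.

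Arrangement of the neighbours differed among the 9 genes. Within 1000 bp, fib-1, nol-58, nol-10, rbd-1 and nst-1 had the 5' end of a coding gene running the opposite way, at gaps of 226 to 485 bp. For nol-58, nol-10 and rbd-1 the IDR summit lay between both 5' ends and could belong to either gene. Among all bound protein-coding genes 577 of 1121 (51.5%) had a summit within 1000 bp of another coding 5' end. The peaks of nol-56 and pro-1 had no other coding gene in reach.

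The replicates were compared across the genes as well as within them. Every gene had at least 1 summit within 1000 bp in replicate 1 (9 of 9, against 47.3% of all protein-coding genes), while 5 of 9 had one in replicate 2 (against 40.8%) and 7 of 9 in the pooled list (against 40.2%). Among the 1311 strongest regions the counts were even, with 4 of 9 in replicate 1 (against 5.13%) and 4 of 9 in replicate 2 (against 5.42%). Only nol-58 and rbd-1 were in both sets of 4. The others were fib-1 and nol-10 in replicate 1, and nol-56 and pro-1 in replicate 2. Over the whole IDR list 634 of 1311 peaks (48.4%) met a region among the 1311 strongest in each of the replicates, 271 (20.7%) in replicate 1 alone and 341 (26.0%) in replicate 2 alone. When the replicate regions were taken from the 2622 strongest, nol-56, nol-58 and rbd-1 had a peak found in both (3 of 9, against 4.5% of protein-coding genes).

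**Figure D4:**
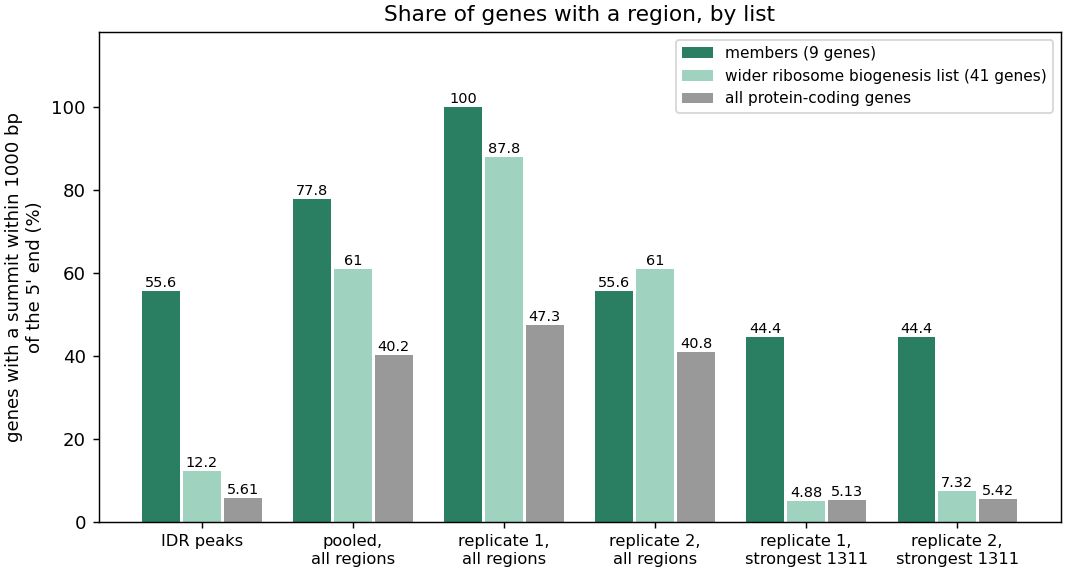
Percentage of genes with a region summit within 1000 bp of the 5' end, for the 9 genes (dark green), the wider list of 41 genes (light green) and all 19985 protein-coding genes (grey), in the IDR list, the full lists and the 1311 strongest regions of each replicate. The 9 genes reach 55.6% in the IDR list, while the wider list stands at 12.2% and all genes at 5.61%. The 9 genes and the wider list were chosen with earlier results of these data known.

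A wider list of ribosome biogenesis genes was described in the same way. It named 55 genes, of which 41 had a symbol in the annotation. Matching was by symbol alone, and the function of each matched gene was not checked. The symbol gar-1, counted in the snoRNP core, may name a gene of another function in C. elegans. This list and the 9 genes were chosen with earlier results of these data known, so their shares are a description only. Of the 41 genes, 5 were bound (12.2%, against 5.61% of protein-coding genes), a smaller share than among the 9 genes. They were ruvb-1 and ruvb-2, the ATPases that help assemble snoRNPs, rpac-19, a subunit that RNA polymerases I and III share, nola-3 of the H/ACA snoRNP, and riok-2, a kinase of late small subunit maturation. By role, the bound genes were 2 of 2 in snoRNP assembly, 1 of 6 in RNA polymerase I, 1 of 8 in the snoRNP core and rRNA modification, 1 of 10 in small subunit processing and 0 of 15 in large subunit assembly and export. With so few genes per role, none of these counts is read as a difference from the background. The share in the wider list also came close to the background when either replicate was used alone, since the 1311 strongest regions reached 2 of 41 genes in replicate 1 (4.88%, against 5.13%) and 3 of 41 in replicate 2 (7.32%, against 5.42%).

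The ruvb-2 peak had a pooled signal of 69.8, with rank 705 in replicate 1 and 650 in replicate 2 and the summit 112 bp upstream. It was the only one of the 5 among the 1311 strongest regions of both replicates. The rpac-19 peak, with a signal of 73.2 and a summit 199 bp upstream, had rank 3631 in replicate 1 and 286 in replicate 2. The nola-3 peak, with a signal of 85.8, had its summit 659 bp upstream, in an intron of another gene, and rank 1490 in replicate 1 and 194 in replicate 2. The riok-2 peak, with a signal of 51.8 and a summit 417 bp upstream, had rank 1814 in replicate 1 and 1740 in replicate 2. The ruvb-1 peak, with a signal of 59.7 and a summit 189 bp upstream, had rank 1498 in replicate 1 and no summit within 1000 bp in replicate 2. In full lists 36 of 41 genes had a summit in replicate 1 (87.8%, against 47.3%) and 25 of 41 in replicate 2 (61.0%, against 40.8%). Those lists include weak regions. A region of any strength near the 5' end was thus common in the wider list, while an IDR peak was at 5 of 41 genes.

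Other sequence features were counted in the same upstream windows. The E-box CACGTG, the site of Myc-type factors, was in 0 of the 9 windows, against 9.44% of all protein-coding genes, and in 8 of 41 genes of the wider list (19.5%). The letters GAGAGA were also in 0 of 9, against 32.2% of all genes, while 542 of 1289 nuclear IDR summits (42.0%) had them within 150 bp. A run of 8 T was in 3 of 9, against 50.4% of all genes. The GC content over 301 bp centred on the 5 IDR summits was 33.6% at pro-1, 34.6% at rbd-1, 35.9% at nol-56, 37.5% at nol-58 and 39.2% at nol-10. The nuclear IDR summits had a median of 38.9% with quartiles of 34.2% and 44.2%, so 4 of the 5 were below the median. These matches describe letters, and nothing is drawn from them about which factor binds.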

How the data were processed

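The labels' notes name 2 biological replicates of ChIP-seq against eGFP-tagged ZTF-7. According to the deposited notes, the authors called regions on each replicate and on both pooled, in each case with 1 further file that was taken to be the control, and derived the IDR list from these 3 lists. The sources used here name no aligner, peak caller or IDR cutoff. As deposited, the signal is the caller's own value per region, and ranks were made from it. The deposited −log10 q-values were not used for ranking. Lists on build ce10 were not used here.

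Genes came from Ensembl release 115 and sequence from RefSeq, both of WBcel235. A summit was counted for every 5' end within 1000 bp, and replicate regions by an overlap of at least 1 bp. The genes and lists were chosen with earlier results of these data known, and the 13-letter box after its sequences were seen. Named genes were the 9 genes, bound genes of the wider list, and neighbours within 1000 bp of the 9 genes' IDR summits. The genes snu-13, rsp-7, wdr-46, mut-15 and cct-4 fall outside this rule and were named after their values or sequences were seen. Window and motif searches were tested on simulated data. Alternatives are given at the end. Computation was in Python 3.11.15 with pandas 2.3.3 and numpy 2.4.6, and figures were drawn with matplotlib 3.10.9.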

Additional observations from a re-analysis of the deposited data

How the results depend on the processing

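The count of bound genes, 5 of 9, was 5 with the 500 bp window (against 4.35% of protein-coding genes), 6 with 2000 bp (7.96%), 5 with any transcript's 5' end (5.91%) and 6 with any base of the region in the window (5.95%). It was 3 where each summit went only to the nearest coding 5' end (nol-56, nol-10 and pro-1, against 4.15%), 3 in the upper 50% of IDR peaks by signal (nol-56, nol-58 and rbd-1, against 2.91%), and 3 where a region among the 2622 strongest was required in both replicates (against 4.5%). It was 4 without replicate 1 (5.42%) and 4 without replicate 2 (5.13%), but fib-1 entered and nol-56 and pro-1 left without replicate 2, and nol-10 left without replicate 1. The wider list count, 5 of 41, was 4 of 41 with the 500 bp window (against 4.35%) and 8 of 41 with 2000 bp (7.96%). It was 6 of 41 with any transcript's 5' end (5.91%) and 5 of 41 with any base of the region in the window (5.95%). A count of 3 of 41 came with nearest 5' ends (4.15%) and in the upper 50% of peaks (2.91%). The same count came with the requirement on both replicates (4.5%) and without replicate 1 (5.42%). Without replicate 2 it was 2 of 41 (5.13%). Each percentage in brackets is the share of all protein-coding genes, not of the 9 or the 41. The share of all genes other than piRNA was 6.09%, against 5.61% of protein-coding genes. Replicate support means that a gene's strongest pooled region was overlapped by a region in both replicates. It held for nol-56, nol-58, rbd-1, pro-1 and ncl-1, which are not the 5 bound genes. The ncl-1 regions were weak, at rank 23622 in the pooled list, 25369 in replicate 1 and 25298 in replicate 2. Counts of genes with a pooled region (7) and with replicate support (5) stayed within 1.5 times under the alternatives run, at 5 to 9 and 4 to 5. The causes were not tested.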

Other observations

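The gene wdr-46, whose yeast counterpart acts in small subunit processing, had a region of signal 53.7 and rank 169 in replicate 1, with its summit 171 bp upstream. Replicate 2, the pooled list and the IDR list had no summit within 1000 bp. It was named after its values were seen. Like fib-1, it was among the 1311 strongest regions of replicate 1 and without a pooled region in reach of its 5' end.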
